A study of Mus musculus with 10 samples.

Results

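RNA of 6 genes of GABA signalling was followed in the neurites of cultured mouse cortical neurons: Gad1, Gad2, Slc32a1, Gabra2, Gabra5 and Gabrb2. They were picked by name and looked up by Ensembl gene ID, and all 6 were found among the 45195 gene IDs with deposited values and among the 15712 genes that could be tested. The 10 libraries fell into 4 groups: 2 of injured Cpeb1 knockout neurites, 2 of naive Cpeb1 knockout neurites, 3 of injured wild-type neurites and 3 of naive wild-type neurites. Knockout (KO) neurons came from Cpeb1 flox/flox embryos, in which Cre recombinase removes a flanked stretch of Cpeb1, and wild-type (WT) neurons from C57BL/6 embryos, which is also the background of the floxed strain. Neurons of both genotypes were given AAV2 with Cre under the ubiquitous CAG promoter when they were plated, so the WT cultures carry Cre as well. The cortical neurons were taken at E16.5 and grown on membranes with 3 µm pores, through which neurites pass while cell bodies stay above. Injured neurites had been scraped off the underside on day 7 and were lysed 24 hours later, on day 8, the same day as naive neurites. An injured library therefore holds what regrew in 24 hours, so injury and the age of the neurites cannot be told apart. The Cpeb1 protein regulates the poly(A) tails and translation of mRNAs whose 3' untranslated region (UTR) holds a U-rich motif near its end, the cytoplasmic polyadenylation element.

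GABA is the main inhibitory transmitter of the adult cortex. It is made from glutamate by the glutamic acid decarboxylases, which Gad1 and Gad2 encode, and is loaded into synaptic vesicles by the transporter that Slc32a1 encodes. These 3 genes are textbook markers of inhibitory interneurons, a minority of cortical neurons. GABA-A receptors are chloride channels built from several subunits, and neurons of most kinds, excitatory ones included, carry them. Gabra2 and Gabra5 encode alpha subunits, and alpha5 is known from extrasynaptic receptors in particular. Gabrb2 encodes a beta subunit, which with an alpha subunit forms the binding site for GABA. In young neurons, with much chloride inside, GABA can depolarise.

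The sequences of the 3 presynaptic genes are shown first because the largest injury differences among the 6 were theirs. Gad1 lies on chr2:70553072-70602014, Gad2 on chr2:22622205-22693874 and Slc32a1 on chr2:158610767-158615748, all on the plus strand (mm10, GENCODE release M21). The lines give the 250 bases before the RefSeq start of each gene (GRCm38.p6, plus strand), at chr2:70561879-70562128 for Gad1, chr2:22622077-22622326 for Gad2 and chr2:158610508-158610757 for Slc32a1. Capitals mark a match to TATAAA, which reads TTTATA where it is on the other strand.
Gad1: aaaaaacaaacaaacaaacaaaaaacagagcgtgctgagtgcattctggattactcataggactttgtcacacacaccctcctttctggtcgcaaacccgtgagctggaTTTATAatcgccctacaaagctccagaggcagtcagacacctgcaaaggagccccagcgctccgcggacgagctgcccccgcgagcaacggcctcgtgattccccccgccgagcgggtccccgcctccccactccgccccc
Gad2: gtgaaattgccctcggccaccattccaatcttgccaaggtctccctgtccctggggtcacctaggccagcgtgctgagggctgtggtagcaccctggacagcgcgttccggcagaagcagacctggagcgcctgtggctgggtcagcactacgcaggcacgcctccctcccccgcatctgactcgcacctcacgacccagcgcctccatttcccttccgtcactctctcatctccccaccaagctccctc
Slc32a1: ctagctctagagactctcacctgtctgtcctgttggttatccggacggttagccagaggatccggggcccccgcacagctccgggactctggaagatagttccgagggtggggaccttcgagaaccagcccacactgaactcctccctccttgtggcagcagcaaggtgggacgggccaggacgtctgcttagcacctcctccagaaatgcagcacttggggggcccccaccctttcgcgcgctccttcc
Gad1 held 1 TATAAA match, at 141 to 136 bases before the start on the other strand, and neither Gad2 nor Slc32a1 held any. The window before one of the 3 RefSeq starts of Gabrb2 held 1 on the same strand, at 30 to 25 bases before the start. Of 32851 mouse promoter windows of this length 12.4% held TATAAA on either strand. TAATTA, the core that homeodomain proteins bind, was in 4.84% of them, and TGANTCA, the AP-1 motif, in 6.75%. Both were searched on both strands, and neither was in a window of any of the 6 genes. The windows of Gad1, Gad2 and Slc32a1 had a GC content of 58.0%, 64.0% and 62.4%.

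The other sequences are shown because they hold the letters of the motif that Cpeb1 is known to bind. The last 200 bases of the 3' UTR were searched on the sense strand for TTTTAT or TTTTAAT, the letters of the cytoplasmic polyadenylation element, which 29.8% of the 12025 tested genes with such a window held. Of the 6 genes only Gabra5 and Gabrb2 held one. Each line gives 30 bases on the gene's own strand (mm10), with the motif in capitals.
Gabra5: agttattttctgTTTTATtgccctgtacat
Gabrb2: ttggctcctgtaTTTTAATtatgtgcttta
The Gabra5 site is at chr7:57407748-57407777 on the minus strand and the Gabrb2 site at chr11:42628920-42628949 on the plus strand. From the first base of the motif to the end of the transcript were 94 bases in Gabra5 and 97 in Gabrb2. The window of Gad1, Gad2, Slc32a1 and Gabra2 held neither string, which says nothing about sites elsewhere in these transcripts. The polyadenylation signal AATAAA was in the last 40 bases of 62.3% of the 12025 transcripts. Gabra5, Gabrb2 and Gabra2 lacked it there, and Gad1, Gad2 and Slc32a1 held it.

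Values are the authors' FPKM (fragments per kilobase of transcript and 1e6 fragments), after the library scaling in the deposited table, so levels of different genes are given per length. The depth, estimated from the steps in these values, was 20.7 to 27.7 per library in units of 1e6 fragments, and 12231 to 13143 genes had a value of at least 1. The library labelled WT injured 3 stood apart, with the lowest mean correlation to the others (0.839, against 0.867 to 0.898), and values without it are given for some genes only. All 10 general neuronal markers were among the tested genes. Of 7 microglia markers 4 were tested and none passed in any comparison, Cx3cr1 and Tmem119 were at 0 in all 10 libraries, and the highest, C1qb, reached 11.3 FPKM in KO naive 2 and was at 0 in 6 libraries. The summed microglia markers were at 0.288 to 7.57 FPKM in KO injured, 2.80 to 18.4 in KO naive, 0.012 to 5.63 in WT injured and 0 to 3.66 in WT naive libraries. The 10 radial glia and progenitor markers summed to 3793 and 3852 FPKM in injured KO and 4244 and 3145 in naive KO libraries. In WT libraries this sum was 2578 to 4814 after injury and 2290 to 2818 in naive ones, most of it Fabp7. The 7 oligodendrocyte lineage markers summed to 237.4 and 239.9 FPKM in injured KO and 206.9 and 113.7 in naive KO libraries. Their WT sums were 162.3 to 405.0 after injury and 158.0 to 175.8 in naive libraries. Cpeb1 was at 1.14 and 3.15 FPKM in the libraries labelled KO injured, 5.97 and 0.356 in KO naive, 1.65, 13.8 and 22.6 in WT injured, and 7.16, 5.96 and 5.86 in WT naive. The library labelled KO naive 1 thus lay within the WT naive range, and WT injured 1 within the KO injured range. The difference (KO minus WT) was -1.25 ± 0.91 in naive and -1.71 ± 0.91 in injured neurites (log2, SE), with adjusted p = 1 and 0.549 by limma. Single libraries moved both values: the naive one was -0.067 without KO naive 2 and -2.43 without KO naive 1, and the injured one -2.65 without WT injured 1 and -1.07 without WT injured 3. Which exons Cre removes is not given in the sources used here, so the level of the whole gene does not check the labels. The labels do not say that replicates were separate cultures, so the spread behind each p-value is that between these libraries and may be technical.

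**Figure D1:**
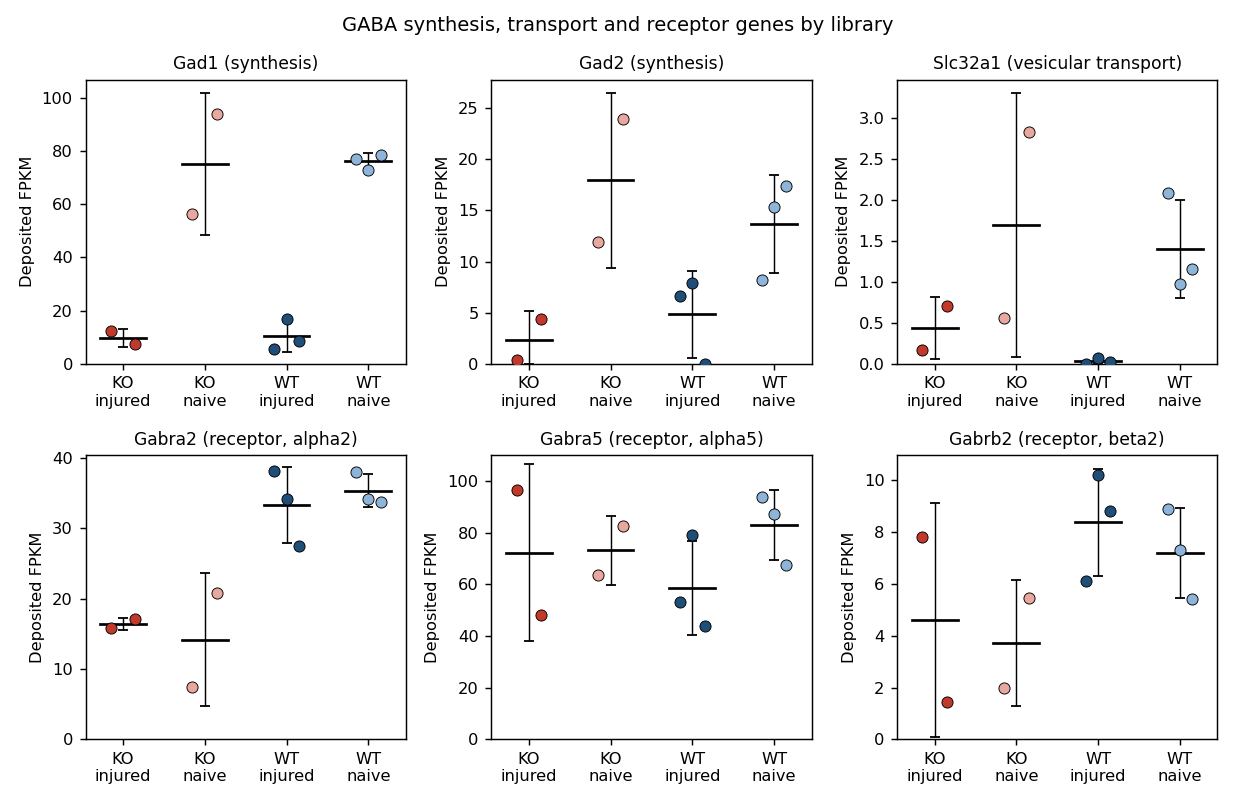
Deposited FPKM of the 6 genes in each of the 10 libraries (points), with the group mean (thick line) and SD (thin bar, not drawn below 0), for KO injured, KO naive, WT injured and WT naive neurites. Gad1 is at 5.50 to 16.9 in all 5 injured libraries and at 56.3 to 94.1 in all 5 naive ones, while Gabra2 is at 7.51 to 20.8 in all 4 KO libraries and at 27.5 to 38.1 in all 6 WT ones.

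Gad1 values were lower in injured than in naive neurites of both genotypes, and the difference passed the test in WT neurites only. Gad1 had 12.2 and 7.27 FPKM in injured KO neurites, against 56.3 and 94.1 in naive KO neurites. In WT neurites it had 5.50, 16.9 and 8.59 FPKM after injury, against 76.9, 72.9 and 78.6 in naive ones. Every injured library was below every naive one, in both genotypes. The mean after injury was 12.9% of the naive mean in KO neurites and 13.5% in WT neurites. Gad1 fell by 2.90 on the log2(FPKM + 1) scale in WT neurites (SE 0.38, adjusted p = 0.00396, limma over all 15712 genes), and it was the only one of the 6 genes to pass the threshold of 0.05 in any comparison. In KO neurites the difference was -2.82 ± 0.46 (95% interval -3.82 to -1.82), and its adjusted p was 0.0559. Over the settings without 1 library it ranged from 0.0392 (without WT injured 3) to 1 (without KO naive 2), and the difference from -3.19 to -2.46. It was under 0.05 without WT injured 3 or WT injured 2 and above it without any other library. The call in WT neurites did not rest on WT injured 3 (-2.84 without it, adjusted p = 0.0128), but it was lost when only the WT groups were fitted (adjusted p = 0.0658) and with no filter on low values (0.0552).

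Gad2, whose enzyme is largely bound to synaptic vesicles, was less abundant and more variable. Injured KO neurites had 0.361 and 4.34 FPKM, against 11.9 and 24.0 in naive KO neurites. Injured WT neurites had 6.64, 7.94 and 0 FPKM, against 8.23, 15.4 and 17.4 in naive WT neurites. Again no injured library reached its naive group, although WT injured 2 and WT naive 1 were close. The differences were -2.74 ± 0.99 in KO neurites (adjusted p = 0.754) and -1.78 ± 0.81 in WT neurites (adjusted p = 0.349, limma), and neither passed. WT injured 3, where Gad2 was listed at 0, weighed heavily in the second value, which was -0.77 without it (adjusted p = 0.650). In KO neurites the value was -1.75 without KO injured 1 and -3.72 without KO injured 2.

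Slc32a1 was the lowest of the 6 genes in all 4 groups. Injured KO neurites had 0.171 and 0.709 FPKM, against 0.553 and 2.83 in naive KO neurites. Injured WT neurites had 0, 0.072 and 0.025 FPKM, against 2.09, 0.973 and 1.15 in naive WT neurites. In WT neurites every injured library was below every naive one, as in 8.02% of all tested genes, and in KO neurites the groups overlapped. The differences were -0.79 ± 0.62 in KO neurites (adjusted p = 0.975) and -1.19 ± 0.50 in WT neurites (adjusted p = 0.317, limma). The KO value ran from -1.44 (without KO naive 1) to -0.14 (without KO naive 2) when 1 library was left out, and the WT value was -3.47 with a pseudocount of 0.1 and -0.34 with one of 5. The added 1 FPKM shrinks differences at such levels, and the gene passed the filter on low values only through naive libraries, so that some difference of this sign was built in. Of its exon bases 24.9% overlap Gm14205 on the opposite strand, and these libraries cannot tell the strands apart.

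Of the 6 genes, Gad1 and Gad2 were lower in every injured library than in every naive one in both genotypes, a pattern that 2.99% of all tested genes showed. Summed over Gad1, Gad2 and Slc32a1, the level was 12.7 and 12.3 FPKM in injured KO neurites, against 68.7 and 120.9 in naive KO neurites. It was 12.1, 24.9 and 8.61 FPKM in injured WT neurites, against 87.2, 89.2 and 97.2 in naive WT neurites. No library of one state reached the range of the other. Gad1 made up most of the sum, with a mean of 75.2 of 94.8 FPKM in naive KO and 76.1 of 91.2 in naive WT neurites. The separation of the sum therefore largely repeats that of Gad1.

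Most other interneuron markers had lower values after injury as well. Of 20 listed 19 were tested, and 16 had a difference below 0 in KO and 18 in WT neurites, beside 56.15% and 48.99% of all tested genes. By limma 1 of the 19 was lower in KO neurites (Sst), 4 were lower in WT neurites (Dlx1, Dlx5, Sst and Npy), and none was higher in either. Of all tested genes 0.0573% passed in KO neurites in either direction, and 0.248% were lower in WT neurites. The median log2 difference of the 19 markers was -1.25 in KO and -1.53 in WT. Sst encodes the peptide somatostatin, Npy neuropeptide Y, and Dlx1 and Dlx5 are transcription factors of the interneuron lineage. The summed level of the 20 listed markers was 74.1 and 149.8 FPKM in injured KO neurites, against 514.8 and 889.9 in naive KO neurites. It was 94.9 to 116.2 FPKM in injured WT neurites, against 446.3 to 714.9 in naive WT neurites. Sst and Npy made up much of this sum. Their means were 278.3 and 223.4 FPKM of 702.3 in naive KO neurites, and 297.6 and 129.9 of 572.9 in naive WT neurites. Nkx2-1, the marker that was not tested, was listed at 0 in 4 libraries, Vip in 5 and Pvalb in 7. Vip, Dlx6, Sp9, Erbb4 and Maf each reached 1 FPKM in only 1 injured library, so they passed the filter only through naive ones. Some difference below 0 was thus built in for them. Pvalb passed the filter only through injured libraries. The summed level of 15 projection neuron markers, of which none passed for injury in either genotype, was 515.3 to 575.8 FPKM in injured KO, 602.6 to 611.5 in naive KO, 346.1 to 546.7 in injured WT and 511.1 to 572.5 in naive WT neurites. Of these 9 had a difference below 0 in KO and 12 in WT neurites, with medians of -0.47 and -0.65. The 10 general neuronal markers, none of which passed for injury, had 8 differences below 0 in KO and 6 in WT neurites (medians -0.23 and -0.36) and summed to 3020 to 4042 FPKM in injured KO, 3992 to 4368 in naive KO, 2175 to 2960 in injured WT and 3422 to 3775 in naive WT neurites. The 12 astrocyte markers summed to 735.0 to 832.5 FPKM in injured KO, 502.0 to 578.8 in naive KO, 647.2 to 1487 in injured WT and 403.2 to 553.0 in naive WT neurites, and 1 of the 11 tested (Sox9) was higher after injury in WT. In such bulk libraries neurites of fewer cells of a type and less RNA per neurite cannot be told apart, and the part of cell makeup in the levels of Gad1 and Gad2 was not tested. Further values moved with injury in WT neurites. Malat1, a nuclear-retained RNA, rose in them (1.23 ± 0.26 on the log2 scale, adjusted p = 0.0455, limma), with 1236 and 2424 FPKM in injured KO, 1797 and 2582 in naive KO, 5513 to 6633 in injured WT and 1856 to 3440 in naive WT neurites. Of 8 listed nuclear-retained RNAs no other passed for injury. Among the 8, 6 had a difference below 0 in KO and 6 in WT neurites, with medians of -0.36 and -0.19. The share of the summed FPKM in 2 gene models of ribosomal RNA sequence was 12.1% and 15.1% in injured KO, 12.6% and 16.9% in naive KO, 19.9% to 28.2% in injured WT and 11.1% to 16.4% in naive WT neurites. Malat1 and this share overlapped between injured and naive libraries in KO neurites (Malat1 -0.32 ± 0.32, adjusted p = 0.982, limma), and their part in the WT difference of Gad1 was not tested.

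**Figure D2:**
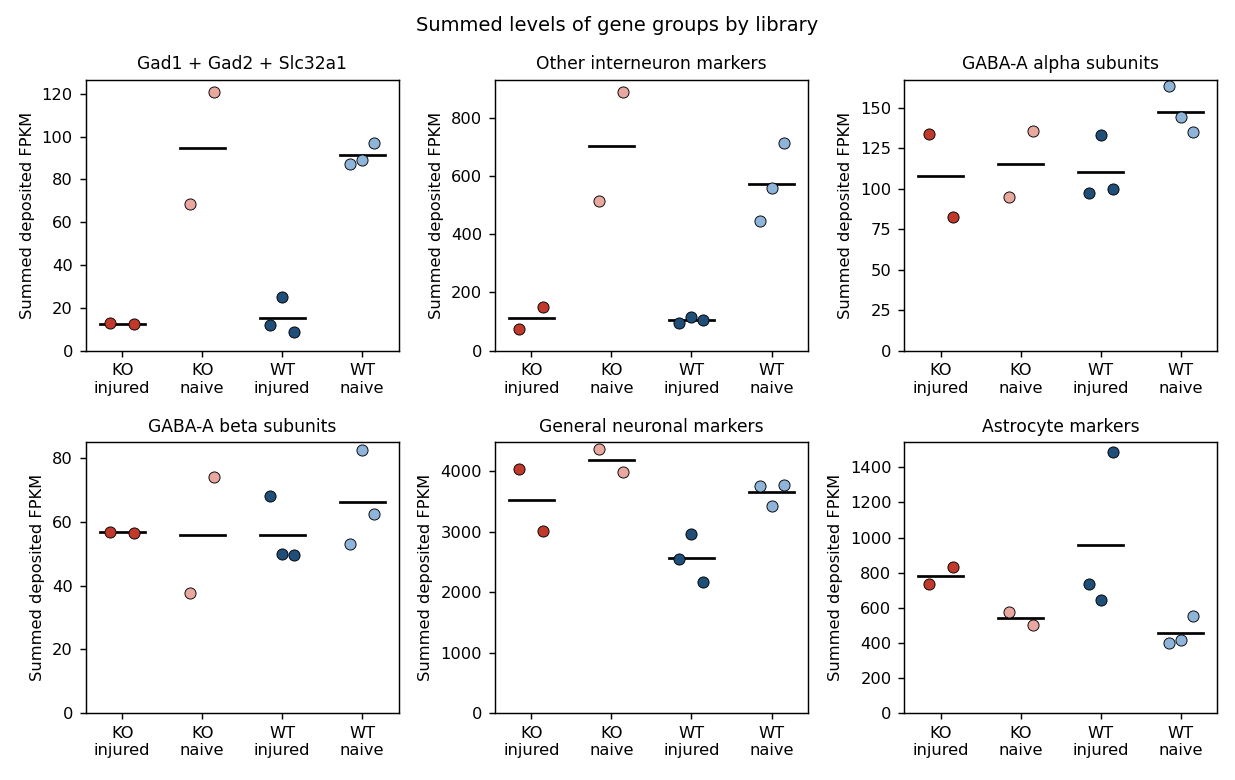
Summed deposited FPKM of 6 gene groups in each of the 10 libraries (points) with the group mean (line), for KO injured, KO naive, WT injured and WT naive neurites. Gad1, Gad2 and Slc32a1 together and the other interneuron markers are lower in all injured libraries than in all naive ones of both genotypes. The alpha subunit sums of injured and naive libraries overlap in KO neurites. In WT neurites they do not, with 97.65 to 133.5 in injured and 135.2 to 163.4 in naive libraries. General neuronal markers likewise overlap in KO neurites and are lower in all injured libraries in WT neurites.

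None of the 3 receptor subunits passed in the injury comparison of either genotype. Gabra5 (chr7:57407672-57510059, minus strand) had the highest mean of the 6 genes in injured KO, injured WT and naive WT neurites, and Gad1 had it in naive KO neurites. In naive neurites of both genotypes the ranges of the 2 genes overlapped. Gabra5 had 96.4 and 48.1 FPKM in injured KO neurites, against 63.6 and 82.6 in naive KO neurites. It had 53.2, 78.96 and 43.7 FPKM in injured WT neurites, against 93.9, 87.2 and 67.6 in naive WT neurites. Injured and naive libraries overlapped in both genotypes. The injury difference was -0.09 ± 0.36 in KO neurites (95% interval -0.87 to 0.70) and -0.52 ± 0.30 in WT neurites (95% interval -1.16 to 0.12), with adjusted p = 1 and 0.460 by limma. Gabra5 made up 65.1% ± 9.7 of the summed FPKM of the alpha subunits in injured KO, 64.0% ± 4.5 in naive KO, 52.5% ± 7.9 in injured WT and 55.9% ± 5.3 in naive WT neurites (SD, n = 2, 2, 3 and 3).

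Gabra2 (chr5:70957597-71095849, minus strand) differed more between genotypes than between states, without passing the test. It had 15.8 and 17.1 FPKM in injured KO neurites, against 38.1, 34.2 and 27.5 in injured WT neurites. It had 7.51 and 20.8 FPKM in naive KO neurites, against 38.005, 34.2 and 33.8 in naive WT neurites. Every library labelled KO was below every library labelled WT, in both states, as was the case for 1.37% of all tested genes. The mean in KO neurites was 49.3% of the WT mean after injury and 40.1% in naive neurites. The genotype difference did not pass over all genes, at -0.97 ± 0.39 in injured neurites (95% interval -1.80 to -0.13, adjusted p = 0.405) and -1.41 ± 0.39 in naive neurites (95% interval -2.25 to -0.58, adjusted p = 0.760, limma). The library labelled KO naive 1, in which Cpeb1 was at the WT level, had the lowest value, and without it the naive difference was -0.73 (adjusted p = 1). The injury difference was 0.35 ± 0.42 in KO and -0.09 ± 0.35 in WT neurites. Gabra2 was 16.2% ± 6.3 of the alpha subunit sum in injured KO, 11.6% ± 5.2 in naive KO, 30.7% ± 7.2 in injured WT and 24.0% ± 0.9 in naive WT neurites (SD, n = 2, 2, 3 and 3).

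Gabrb2 (chr11:42419757-42629028, plus strand) was the least abundant of the 3 subunits. It had 7.80 and 1.43 FPKM in injured KO neurites, against 6.13, 10.2 and 8.81 in injured WT neurites. It had 1.99 and 5.44 FPKM in naive KO neurites, against 8.88, 7.32 and 5.42 in naive WT neurites. The genotypes overlapped in both states, in the naive ones by a margin of 5.44 against 5.42. The differences were -0.996 ± 0.64 in injured neurites (adjusted p = 0.620) and -0.88 ± 0.64 in naive neurites (adjusted p = 1, limma). Each turned on single KO libraries: the first was -0.07 without KO injured 2, and the second -0.33 without KO naive 1. The injury difference was 0.08 ± 0.70 in KO and 0.19 ± 0.58 in WT neurites.

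Over the 6 genes, none passed in the injury comparison of KO neurites, where 0.0573% of all tested genes did, and 1 passed in WT neurites, where 0.948% did. The median injury difference of the 6 was -0.44 in KO and -0.86 in WT neurites, beside -0.09 and 0.01 over all genes tested. Both injury medians lie midway between the values of Slc32a1 and Gabra5, and for Slc32a1 the filter built in some difference below 0. They therefore do not show a shift of the 6 genes as a set. None passed between genotypes in injured neurites, where 0.261% of all genes did, or in naive neurites, where 0.146% did, with medians of -0.30 and -0.12 beside -0.05 and 0.06 over all genes. The interaction, which asks whether injury changed a gene differently in KO than in WT neurites, passed for 0% of all genes by limma, with 979 at an unadjusted p under 0.05 and none of the 6 among them. For Gad1 it was 0.07 ± 0.60 (95% interval -1.21 to 1.36), for Gad2 -0.95 ± 1.28 and for Gabra2 0.45 ± 0.55. These intervals are wide, so a p that missed the threshold does not show that the genotypes responded alike.

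**Figure D3:**
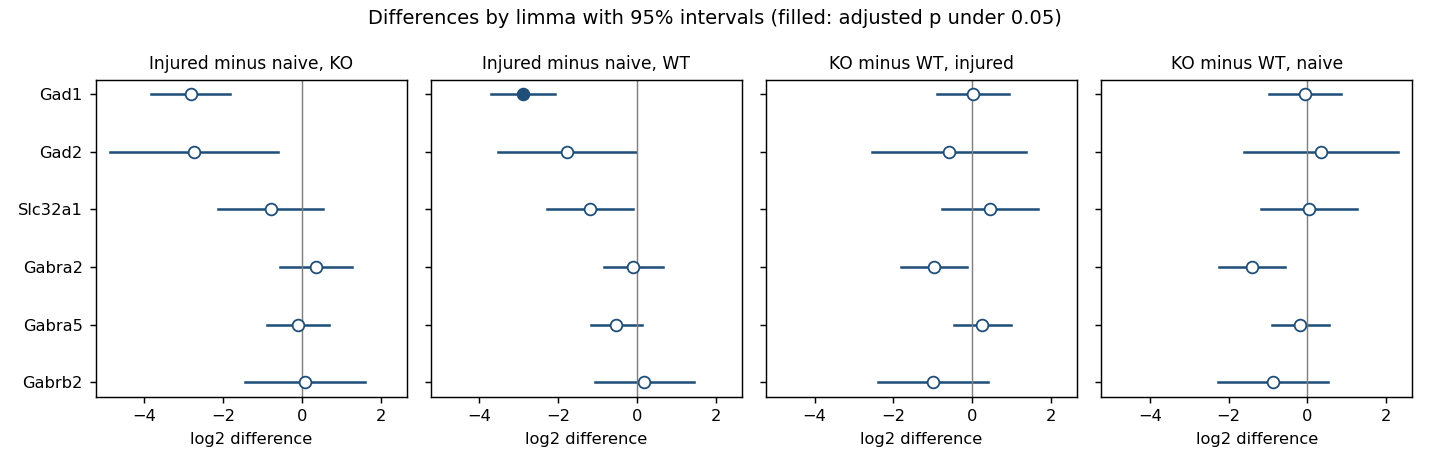
Log2 differences with 95% intervals from limma for the 6 genes in 4 comparisons, injured minus naive in KO and in WT neurites and KO minus WT in injured and in naive neurites. The filled point (Gad1 in WT neurites) has an adjusted p under 0.05, and the vertical line marks no difference.

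Beside the 6 genes, 43 others of GABA breakdown, uptake, receptors, anchoring, trafficking and chloride transport were listed, of which 36 were tested. For injury 0 of the 36 passed in KO neurites and 1 was lower in WT neurites, and for genotype 0 passed in injured and 0 in naive neurites (limma), and 1, 7, 2 and 0 had an unadjusted p under 0.05. Over all tested genes the shares with such a p were 5.73%, 13.9%, 10.5% and 3.76% in these 4 comparisons, and only the count of 7 for injury in WT neurites is a larger share of the 36 than that. The median difference of the list was -0.10 in KO and -0.28 in WT neurites for injury, and 0.22 in injured and 0.03 in naive neurites for genotype.

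The genes of this list named here, each the most abundant of its role, did not pass in either genotype. Gabbr1, a subunit of the metabotropic GABA-B receptor, had 26.5 to 34.3 FPKM in injured KO, 31.6 to 35.3 in naive KO, 24.9 to 34.2 in injured WT and 39.6 to 44.2 in naive WT neurites. Gabarap, which binds the gamma subunit and acts in membrane traffic and autophagy, was the most abundant of the 36, with 341.5 to 388.6 FPKM in injured KO, 357.4 to 405.1 in naive KO, 306.1 to 536.1 in injured WT and 287.1 to 393.7 in naive WT neurites. Injured and naive libraries overlapped for these except Gabbr1 in WT neurites, whose difference was -0.46 ± 0.25 (adjusted p = 0.438, limma). Its injured WT libraries were all below its naive WT ones, as in 8.02% of all tested genes. Abat, the transaminase that breaks GABA down, was at 7.47 and 6.14 FPKM in injured KO neurites, against 12.3 and 30.5 in naive KO neurites (-1.40 ± 0.68, adjusted p = 0.891, limma). In WT neurites Abat overlapped, with 6.82 to 24.7 FPKM after injury, against 6.10 to 19.8 in naive ones. Kctd16, an auxiliary GABA-B subunit, had 31.5 and 35.0 FPKM in injured KO neurites, against 19.7 and 23.4 in naive KO neurites, and 14.4, 36.2 and 21.6 in injured WT neurites, against 23.5, 23.4 and 31.7 in naive WT neurites. Slc12a5, the neuronal chloride exporter, had 6.76 and 5.20 FPKM in injured KO neurites, against 6.03 and 5.36 in naive KO neurites, and 3.10, 4.85 and 2.99 in injured WT neurites, against 4.49, 2.001 and 6.86 in naive WT neurites. The injury differences were 0.60 ± 0.41 in KO and -0.20 ± 0.34 in WT neurites for Kctd16, and 0.05 ± 0.64 in KO and -0.14 ± 0.52 in WT neurites for Slc12a5.

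**Figure D4:**
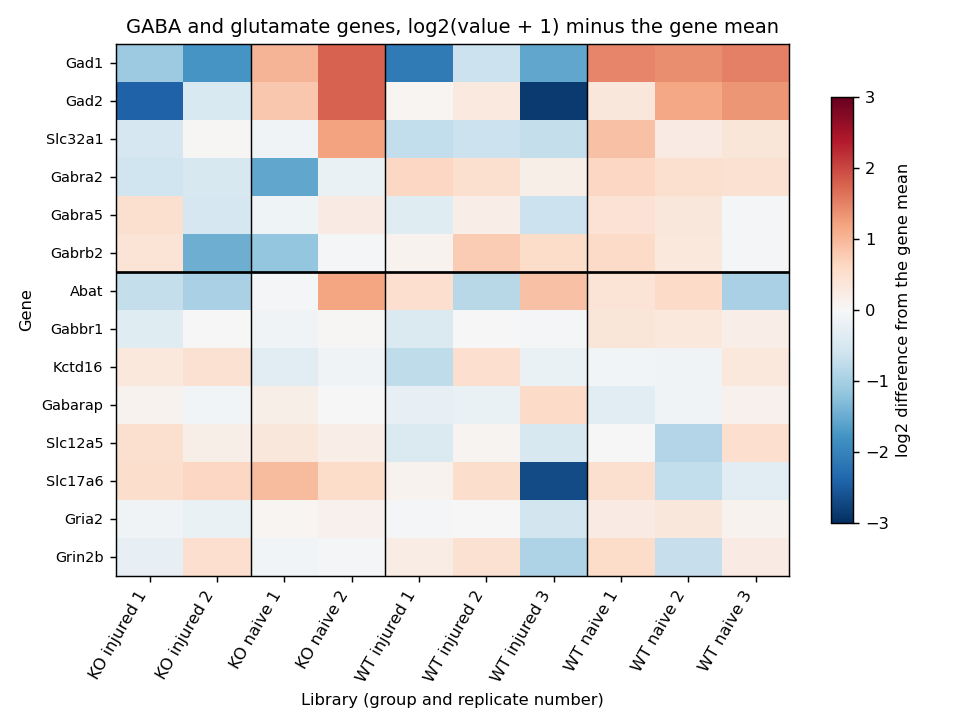
Log2(FPKM + 1) of the 6 genes (above the line) and, below it, of 5 other GABA genes and 3 glutamate genes in each of the 10 libraries, minus the gene's mean over the libraries, for KO injured, KO naive, WT injured and WT naive neurites. Gad1 is below its mean in all 5 injured libraries and above it in all 5 naive ones.

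The glutamate counterparts of these genes, which serve the main excitatory transmitter, give a comparison by role. Of 13 listed, 12 were tested and none passed in any of the 5 comparisons, with a median injury difference of -0.31 in KO and -0.31 in WT neurites. At most 0.948% of all tested genes passed in any of these comparisons, so none among 12 does not set this list apart. Gria2, an AMPA receptor subunit, had 112.5 and 106.6 FPKM in injured KO neurites, against 128.1 and 133.8 in naive KO neurites. In WT neurites Gria2 had 82.7 to 122.4 FPKM after injury, against 131.2 to 155.1 in naive ones (-0.42 ± 0.19, adjusted p = 0.357, limma). The difference of Slc17a6, a vesicular glutamate transporter, was -0.48 ± 0.74 and that of Grin2b, an NMDA receptor subunit, -0.11 ± 0.40 after injury in WT neurites. The lowest injury differences of this list in WT neurites were those of Grin1, an NMDA receptor subunit, and Gria1, an AMPA receptor subunit, named here after their values were seen. Grin1 had 11.4 and 8.59 FPKM in injured KO neurites, against 19.3 and 26.3 in naive KO neurites, and 7.505 to 17.4 in injured WT neurites, against 25.5 to 28.5 in naive WT neurites (-1.11 ± 0.44 in KO, adjusted p = 0.795, and -1.25 ± 0.36 in WT, adjusted p = 0.153, limma). Gria1 had 10.6 and 7.499 FPKM in injured KO neurites, against 17.8 and 19.997 in naive KO neurites, and 5.73 to 12.6 in injured WT neurites, against 16.0 to 22.1 in naive WT neurites (-1.001 ± 0.469 in KO, adjusted p = 0.873, and -1.19 ± 0.38 in WT, adjusted p = 0.193, limma). Neither overlapped between injured and naive libraries in either genotype, with injured below naive, as in 2.99% of all tested genes. No difference between the 6 genes and their glutamate counterparts was tested.

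The genes whose log2 values over the 10 libraries were most like those of each of the 6, among 7500 or 7501 protein-coding genes with a mean at or above the median of tested genes, are given as a description with Pearson's r. For Gad1 they were Gria1 (0.962), Mcf2l (0.959), Ywhag (0.958), Pacsin1 (0.955) and Grin1 (0.954). For Gad2 they included Scamp1 (0.951), Caln1 (0.935), Npy (0.930) and Ppp1r1b (0.920), and Npy is among the interneuron markers. For Slc32a1 the nearest was Prkacb (0.939), for Gabra2 Sgip1 (0.937), for Gabra5 Meaf6 (0.951) and for Gabrb2 Cul7 (0.909). The points share the split into injured and naive libraries and, for Gabra2, that between genotypes, so a high r can come from that split alone.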

How the data were processed

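RNA from neurites was reverse transcribed from poly(A) tails and amplified by Smart-seq2, per the labels' protocols, a method that does not mark strand. The submitters' processing notes name STAR 2.4.2a, RSEM 1.2.21 and the build mm10. The values deposited by the authors were taken as FPKM times 1 factor per library, which the notes do not state: in each library at least 99.9% of the values between 0 and 100 were whole multiples of 0.01 times that factor, with a tolerance of 0.00051. Counts were not used here. Gene names came from GENCODE release M21 (44548 of 45195 IDs matched).

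Differences were tested with limma 3.58.1 (R 4.3.3) on log2(FPKM + 1), with a mean-variance trend, 4 group means and all 10 libraries in 1 fit, over the 15712 genes that reached 1 FPKM in 2 libraries or more. Benjamini-Hochberg adjustment covered all of them, with a threshold of 0.05. The spread of each gene had 6 residual and 6.8 prior degrees of freedom. Means and SDs are of FPKM. The genes and lists were chosen with earlier results of these data known. Of the other GABA genes and glutamate counterparts, those that passed and the most abundant of each role were to be named, and some of them are not reported here. No other nearly identical transcript (at least 95% identity over 150 bases, blastn 2.17.0) was found among tested genes for the 6 genes. Alternatives covered the pseudocount, the filter, scaling, variance settings, the groups fitted, a replicate block and leaving out each library.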

Additional observations from a re-analysis of the deposited data

How the results depend on the processing

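Over 41 named differences, 20 alternative settings gave 809 values, of which 758 kept both direction and call, 2 lost the call, 5 gained it and 44 changed sign. The injury difference of Gad1 in WT neurites ran from -3.29 to -2.47 over all settings, with adjusted p from 0.00134 to 0.0658 (limma throughout), and leaving out any 1 library kept its call. The number of the 6 genes called for injury in WT neurites was 1, and 0 with no filter or with only the groups compared in the fit. In KO neurites it was 0, and 1 with a pseudocount of 5, with a minimum of 5 FPKM and with robust eBayes, each time Gad1, and 0 to 1 over the settings without 1 library. Of the other GABA genes 1 was called for injury in WT neurites, 0 with a pseudocount of 5, no filter, only the groups compared or a replicate block, 2 with quantile or median-ratio scaling, and 0 to 2 without 1 library. For genotype in injured neurites 0 were called, and 1 with a pseudocount of 0.1 or no trend. Over all genes, 149 were called for injury in WT neurites, against 25 with no filter, 77 with no trend, 17 with only those groups, and 35 to 311 without 1 library. In KO neurites 9 were called, against 1 with a pseudocount of 0.1 or no trend, 33 with no filter, 4 with quantile scaling, 15 with robust eBayes, 0 with only those groups and 5 with the block. Between genotypes 41 were called in injured neurites, against 15 with only those groups, and 23 in naive ones, against 52 with no filter and 15 with only those groups. For the interaction 0 were called, against 13 with no filter and 3 with no trend. Of the calls for injury in WT neurites 73.8% were higher, against 61.0% with quantile scaling, 48% with no filter, 82.4% with only the groups compared, and 59.5% to 80% without 1 library. Deviations from the group mean of same-numbered libraries correlated at -0.048 to 0.041 over 13 pairs, against -0.051 to 0.051 for other pairs. In a group of 2 libraries such deviations mirror each other, so these ranges are not independent. They do not settle whether replicate numbers pair the libraries. Small differences changed sign in single settings: Gabarap -0.026 (quantile, injury in WT), Gabra5 0.010 (median-ratio, injury in KO), Gabrb2 0.068 and 0.021 (quantile and median-ratio, interaction), Gad1 -0.009 and -0.005 (pseudocount 5 and replicate block, genotype in injured), Gad2 -0.059 (replicate block, genotype in naive) and Slc32a1 -0.050 (pseudocount 0.1, genotype in naive). Other signs depended on 1 library, and their log2 differences without each library in turn had these ranges. For injury in WT neurites these were Abat from -0.31 to 0.69, Gabarap from -0.12 to 0.28, Gabra2 from -0.20 to 0.033, Grin2b from -0.48 to 0.31, Kctd16 from -0.53 to 0.11, Slc12a5 from -0.52 to 0.17 and Slc17a6 from -1.09 to 0.52. For injury in KO neurites these were Gabra2 from -0.33 to 1.03, Gabra5 from -0.58 to 0.41 and Gabrb2 from -0.85 to 1.00. For genotype in naive neurites these were Gabra5 from -0.36 to 0.009, Gad1 from -0.43 to 0.30, Gad2 from -0.12 to 0.83 and Slc32a1 from -0.60 to 0.70. For genotype in injured neurites these were Gabra5 from -0.24 to 0.75, Gad1 from -0.33 to 0.40 and Gad2 from -1.62 to 0.39. For the interaction these were Gabra2 from -0.23 to 1.13, Gabra5 from -0.060 to 0.93, Gabrb2 from -1.04 to 0.81, Gad1 from -0.29 to 0.47, Gad2 from -1.97 to 0.034 and Slc32a1 from -0.25 to 1.06. The cause of these changes was not tested, and with a minimum of 5 FPKM Slc32a1 was not tested. The fit of only the groups compared gives no interaction. Of the 6 genes Gad2 and Gabrb2 had the largest SE in every comparison, and Gad2 and Slc32a1 were each at 0 in 1 injured WT library.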
